A study of Mus musculus with 36 samples.

Results

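The comparison described here is that of the cerebellum of stg-/- mice with the cerebellum of stg+/+ mice, the stargazer line. Its members were the 3 arrays of each of these groups, chosen by the line, genotype and tissue in their labels, and so 6 of the 36 arrays of the series. Each array measured total RNA, and the deposited value was 1 signal intensity per probe set, an oligonucleotide set for 1 transcript or a group of them. The other 30 arrays held stg forebrain and both tissues of the lines tg and lh, read here as tottering and lethargic, with 3 arrays in each group. The symbol stg was read as stargazer, which the labels do not spell out. They give the genotype as -/- or +/+, the tissue, and that the mice were killed for tissue, and they name a mutant mouse as the source also in the +/+ groups. Allele, strain and age are unstated in the labels, as is whether each array came from a separate animal, so the p-values measure only the spread between these samples. The labels name no agent.

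Cacng2, the gene mutated in stargazer mice, encodes stargazin, a transmembrane AMPA receptor regulatory protein that was first described as a gamma subunit of calcium channels. Stargazin carries AMPA-type glutamate receptors to the surface and anchors them at the synapse. In the cerebellum it is the main protein of its kind in granule cells, so that in stargazer mice transmission from mossy fibres to granule cells is largely lost, and the mice are ataxic and have absence seizures. Granule cells are the most numerous neurons of the cerebellum, receive input from mossy fibres and excite Purkinje cells, its output neurons. The comparison asks which other transcripts of the cerebellum differ when this protein is missing.

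The arrays were checked against their labels first. Granule cell and Purkinje cell markers were at cerebellar levels on all 6 arrays: the Purkinje cell gene Pcp2 was between 6061 and 9756, against 2.25 to 202 on the forebrain arrays, and Tbr1 and Drd1, genes of forebrain neurons, were at 22.4 or lower. The X-inactivation transcript Xist was between 3645 and 4006 on arrays 1 and 2 of both groups and near 27 on array 3 of both, where the Y-linked Eif2s3y was 588 and 492, so each group held 2 female arrays and 1 male array. Pituitary transcripts varied between arrays of both groups. Prl was 108 and 247 on stg+/+ arrays 1 and 2, against 15.3 to 30.4 on the other 4 arrays. Gh was 74.4, 230.5 and 13.4 on the stg+/+ arrays and 33.2, 20.3 and 126 on the stg-/- arrays, so that stg-/- array 3 was above stg+/+ array 1. Ttr, a choroid plexus transcript, was 3624 on stg+/+ array 2 and between 9811 and 14211 on the other 5. The difference between 3' and 5' control probe sets of Actb was lower by 0.03 (log2) in stg-/-, and the exact two-sided permutation p was 0.7. It is an indicator of RNA integrity. For Gapdh the difference was higher by 0.02, with an exact permutation p of 0.9, where 0.1 is the smallest that 3 arrays against 3 allow.

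Cacng2 itself had signals of 473, 841 and 595 on stg+/+ arrays 1, 2 and 3 and of 4.59, 4.72 and 2.43 on the stg-/- arrays. All 3 stg-/- values lay near the constant of 2.98 that was added before taking log2, so the log2 change of -6.51 (SE 0.21, adjusted p = 8.0e-13) depends on that constant. Another Cacng2 probe set went from 480.3 ± 8.85 (SD, n = 3) to 25.0 ± 19.8, and the remaining one, near the floor in both groups, did not pass the test. The groups were far apart on both called probe sets, as the genotypes in the labels require.

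Of the 27022 probe sets tested, 352 (1.3%) differed between stg-/- and stg+/+ cerebellum at an adjusted p of 0.05 in limma. Here and below, a transcript is said to have risen or fallen only if it passed this test. Higher in stg-/- were 142 (0.525%) and lower were 210 (0.777%). They named 243 genes, 105 of which rose and 138 fell, and no gene had called probe sets in both directions. In 52 genes 2 or more probe sets were called. Changes were mostly moderate: the median size was 0.77 (log2), and 47 probe sets rose and 64 fell more than 2-fold. The median over all probe sets was 0.01. For 351 of the 352 the 3 stg-/- and the 3 stg+/+ arrays did not overlap, which was also so for 15.6% of all probe sets. The exception was a probe set of Fgf1. Where lack of overlap is given for a called gene below, it thus adds no support to the call. All 352 had the same sign in the 3 pairs of same-numbered arrays. For the 351 this follows from the lack of overlap and adds nothing to it. The number of calls rested on few arrays: without stg+/+ array 1, stg+/+ array 3 or stg-/- array 3 there were 225, 231 and 233. Without both stg+/+ arrays 1 and 2 there were 155, of which 100 were among the 352. With the replicate numbers as a block 423 (1.57%) passed, 345 of them among the 352. With only the female arrays there were 148, of which 138 were among the 352.

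**Figure D1:**
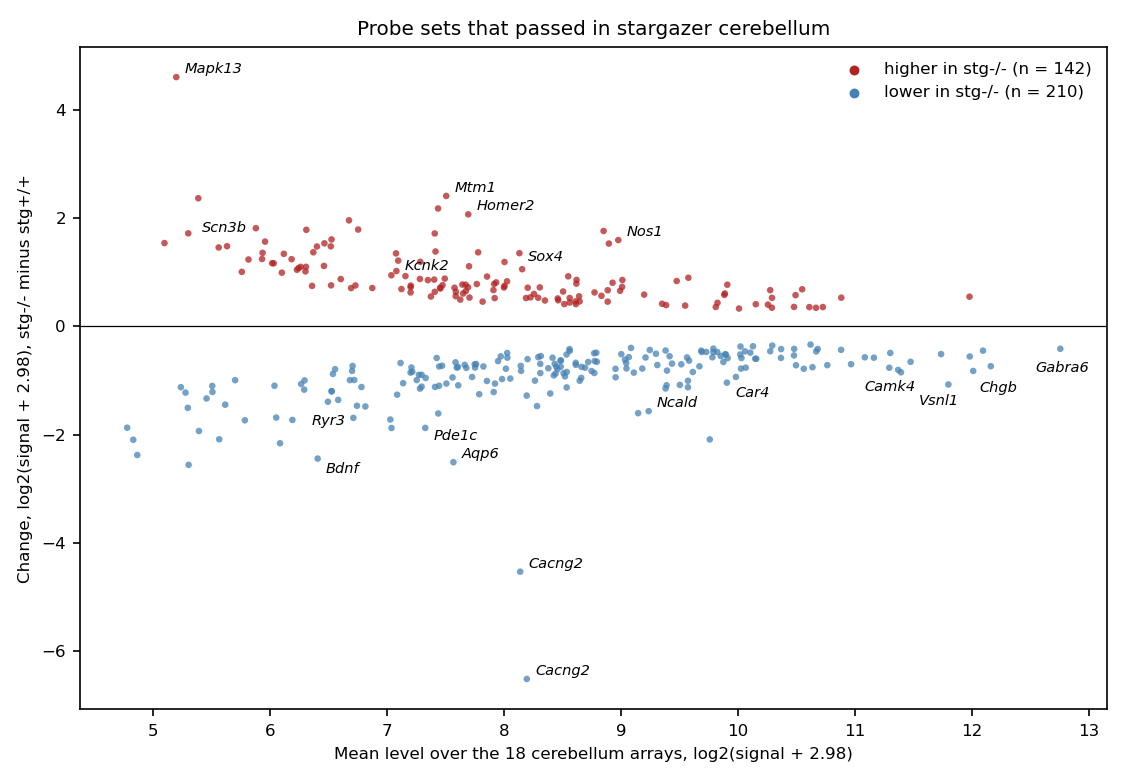
Change in stg cerebellum against level, 1 point per probe set: the x axis is the mean log2 level over the 18 cerebellum arrays, and the y axis the log2 change, stg-/- minus stg+/+. Only probe sets that passed are drawn, the 142 that rose in red and the 210 that fell in blue. Cacng2 lies far below the rest at -6.51, and Mapk13 highest at 4.61.

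The largest rise was that of Mapk13, which encodes p38 delta, a stress-activated MAP kinase. Its signals were 13.8, 4.94 and 11.4 on the stg+/+ arrays and 363, 173 and 425 on the stg-/- arrays. The lowest stg-/- array lay far above the highest stg+/+ array, and the log2 change was 4.61 (SE 0.41, adjusted p = 4.15e-06). Mtm1, a phosphatase of phosphoinositides on endosomes, had signals of 120.0, 109 and 239 on the stg+/+ arrays and of 864, 629 and 913 on the stg-/- arrays, a rise of 2.41 (SE 0.30, adjusted p = 0.000143). A second probe set of Mtm1 rose by 1.53 and the remaining one was at -0.12 and did not pass. Oprl1, the receptor for the peptide nociceptin, rose by 1.78 and 1.48 on its called probe sets. Inf2, a formin that builds and severs actin filaments, had 118, 166 and 106 on the stg+/+ arrays and 470.1, 329.5 and 503 on the stg-/- arrays, a rise of 1.72 (SE 0.19, adjusted p = 3.32e-05).

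Among the genes that fell were a channel, a matrix protein, a secreted protease and a receptor. Aqp6, a water and anion channel of intracellular vesicles, had 219, 329.8 and 192 on the stg+/+ arrays and 39.0, 37.8 and 42.7 on the stg-/- arrays. The stg-/- arrays lay close together and well below the stg+/+ arrays, and the change was -2.51 (SE 0.20, adjusted p = 8.02e-07); 3 of its 4 probe sets fell. Ltbp2, a matrix protein related to the binding proteins of latent TGF-beta, had 211, 173 and 174 against 55.5, 46.2 and 61.7, a change of -1.72 (SE 0.25, adjusted p = 0.000776). Adamts10, a secreted metalloprotease, fell from 419.7, 392 and 397 to 166, 191 and 192, a change of -1.13 (SE 0.10, adjusted p = 5.14e-06). Tyro3, a receptor tyrosine kinase that is activated by Gas6 and protein S, fell by 1.28 on the log2 scale (adjusted p = 0.000566). Groups did not overlap for any of these 4 genes, as for nearly all called probe sets. For Aqp6, Ltbp2 and Tyro3 the rule for the largest falls required it.

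**Figure D2:**
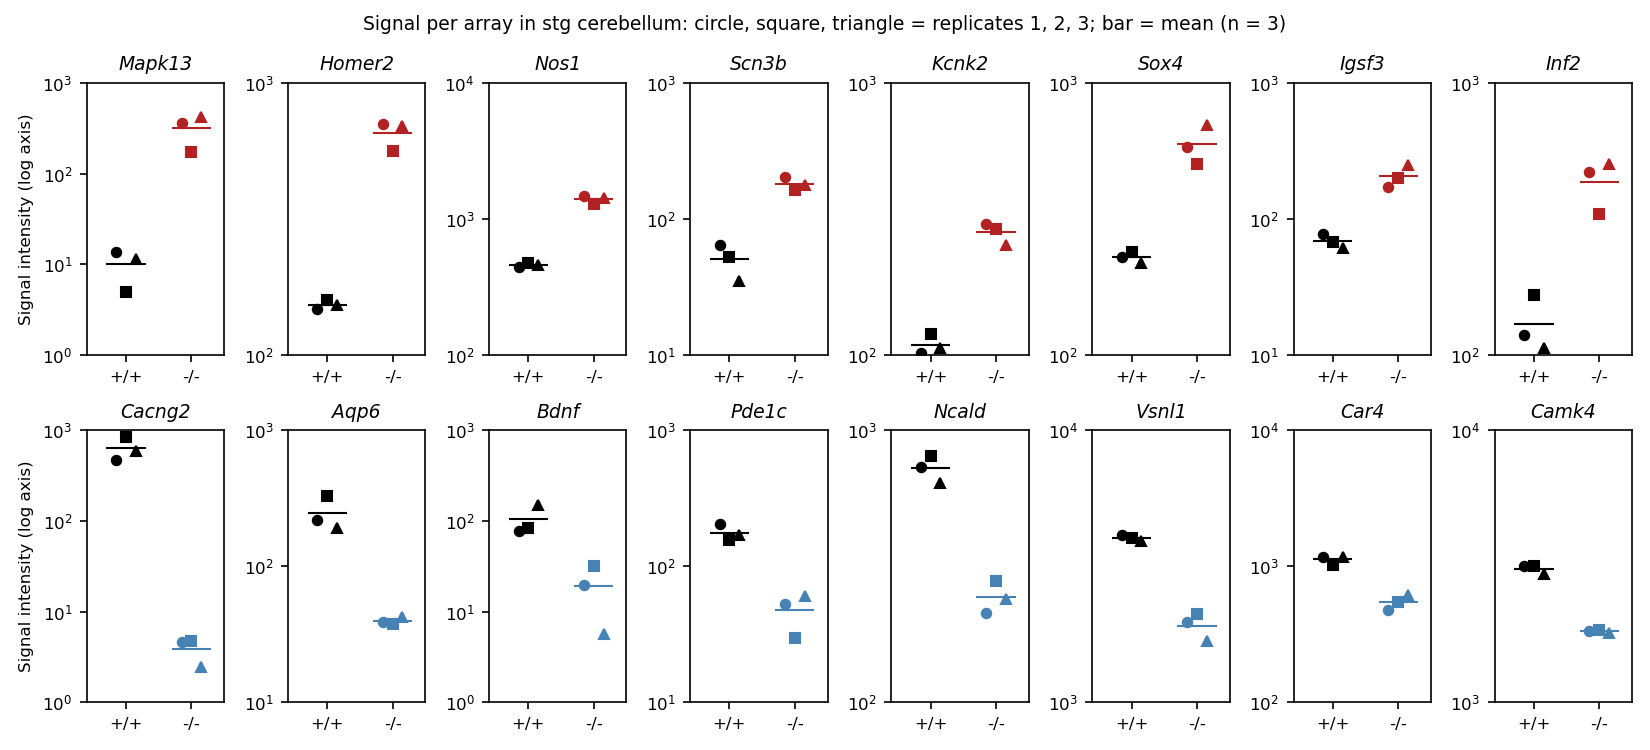
Signal of 16 probe sets on each of the 6 stg cerebellum arrays, 1 panel per gene with a log axis whose range differs between panels. Circles, squares and triangles are arrays 1, 2 and 3 of a group and the bar is the group mean. For the 8 genes that rose, Mapk13 to Inf2, every stg-/- array is higher than all stg+/+ arrays. For the 8 that fell, Cacng2 to Camk4, every one is lower. Such lack of overlap held for nearly all called probe sets.

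Among 26 measured genes of AMPA receptors and their auxiliary proteins, 2 fell, none rose and the median change was -0.02, beside a median of 0.02 over the 12201 genes measured, of which 206 (1.69%) were called on their main probe set, the one with the highest mean, 88 (0.721%) higher and 118 (0.967%) lower. The main probe set stands for a gene in all counts of lists. Of the 12201, 6648 (54.5%) lay above 0, the share to set beside the counts above 0 given for lists below. Besides Cacng2, the member that fell was Olfm3, one of the olfactomedins, secreted proteins that bind AMPA receptors. Its signals were 1942, 1773 and 2151 on the stg+/+ arrays and 1197, 1104 and 1166 on the stg-/- arrays, a change of -0.75 (SE 0.10, adjusted p = 0.000566), and all 3 of its probe sets fell. For Olfm1 a probe set that is not its main one fell by 0.76. The AMPA receptor subunits themselves were among the 24 that did not pass, such as Gria2 at 0.08 and Gria4 at 0.08. Among 17 calcium channel subunits Cacna1d, the pore of an L-type channel, rose by 0.79, Cacna2d3, an auxiliary subunit, rose by 0.48, and only Cacng2 fell. The other Cacna1d probe set was at -0.005 and did not pass. The call of Cacna1d was lost without stg+/+ array 2 or stg-/- array 3 (adjusted p of 0.0565 to 0.07). That of Cacna2d3 was lost without array 1 or 3 of either group (adjusted p of 0.0646 to 0.19).

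Homer2 was the member that rose among 22 other glutamate receptor genes and their scaffolds, with a median of 0.06. Homer proteins link metabotropic glutamate receptors to calcium stores at the postsynaptic density. The signals were 148, 159 and 152 on the stg+/+ arrays and 709.7, 563 and 694 on the stg-/- arrays, which is 4.28 times as high in the means. The change was 2.07 (SE 0.20, adjusted p = 5.97e-06), and the other Homer2 probe set rose by 2.18. Grm4, the presynaptic metabotropic receptor of parallel fibres, which are the axons of granule cells, fell by 0.66 (adjusted p = 0.00553). Grik3, a kainate receptor subunit, fell by 0.66 (adjusted p = 0.0437), a call that ended without any 1 of the 3 stg-/- arrays or stg+/+ array 1 or 3 (adjusted p of 0.0603 to 0.2) and with the replicate numbers as a block (adjusted p = 0.0518). Of 18 GABA and glycine genes Gabra6, the GABA-A receptor subunit of mature granule cells, fell. It had 7076, 7311 and 6770.1 on the stg+/+ arrays and 5222, 5267 and 5399 on the stg-/- arrays, without overlap, a change of -0.41 (SE 0.08, adjusted p = 0.0129). Without stg-/- array 1 or stg+/+ array 1 or 2 this probe set no longer passed (adjusted p of 0.0558 to 0.0574). The second Gabra6 probe set changed by -0.65 (adjusted p = 0.000109). Abat, which breaks down GABA, rose by 0.36 (adjusted p = 0.0362), a call lost without any 1 of the 3 stg-/- arrays or stg+/+ array 2 or 3 (adjusted p of 0.0653 to 0.177).

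Sodium channel genes moved in both directions. Of 10 measured, 8 lay below 0, and the median was -0.24. Scn3b, a beta subunit, rose from 64.7, 52.9 and 35.1 to 204, 164 and 179, a change of 1.81 (SE 0.23, adjusted p = 0.000216), with the groups far apart. Scn2a, a pore subunit of axons, fell from 2409, 2443 and 2267 to 1299.7, 1525 and 1574, a change of -0.70 (SE 0.10, adjusted p = 0.000972), on 3 of its 4 probe sets. Fgf13 and Fgf12, intracellular fibroblast growth factor homologues that bind sodium channels, fell by 0.52 and 0.44 on the log2 scale. The call of Fgf12 was lost without stg-/- array 1 or 2 or stg+/+ array 1 (adjusted p of 0.075 to 0.0819). Fgf14, of the same family, fell by 0.73 on a probe set that is not its main one. Of 41 potassium and HCN channel genes Kcnk2, the leak channel TREK-1, rose and Kcnj3 and Kcnd2 fell. Kcnk2 had 102, 119.9 and 107 on the stg+/+ arrays and 305, 292 and 254 on the stg-/- arrays, a rise of 1.35 (SE 0.13, adjusted p = 5.92e-06). Kcnd2, the A-type channel of granule cell dendrites, had 2409, 2352 and 2537 against 1724, 1627 and 1539.8, a change of -0.58 (adjusted p = 0.00166). Kcnj3, a G protein-gated inward rectifier, fell by 0.82 (adjusted p = 0.00106).

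Some genes that read or carry the calcium signal fell, while the medians of their lists stayed closer to 0. The median was 0.11 for neuronal calcium sensors, with 8 of 14 above 0. It was -0.03 for calmodulin-dependent kinases and calcineurin, with 9 of 20 above 0. For calcium release, buffering and extrusion it was 0.003, with 12 of 23 above 0. Of all genes measured 0.967% fell and 54.5% lay above 0. Ncald, a neuronal calcium sensor with a myristoyl switch, had 734, 806 and 642 on the stg+/+ arrays and 213, 280.1 and 239.6 on the stg-/- arrays, so that stg-/- was at 33.6% of stg+/+ in the means. The change was -1.57 (SE 0.12, adjusted p = 5.86e-07), and all 3 probe sets fell. Vsnl1, a related sensor, had 4135, 4006 and 3909 against 1968, 2104 and 1677, a change of -1.07 (SE 0.11, adjusted p = 2.55e-05). Hpcal4, of the same family, rose by 0.65 (adjusted p = 0.0261), a call that ended without stg-/- array 1 or 3 or any 1 of the 3 stg+/+ arrays (adjusted p of 0.0598 to 0.154). The 14 members of that list thus held 1 rise and 2 falls. Of 20 calmodulin-dependent kinase and calcineurin genes 2 fell. Camk4, a nuclear calmodulin-dependent kinase that phosphorylates CREB, had 3169, 3162 and 2975 against 1835, 1847 and 1796, a change of -0.76 (SE 0.07, adjusted p = 8.79e-06). Camk1d fell by 0.70 (adjusted p = 0.00437). Of 23 genes of calcium release, buffering and extrusion Ryr3, a ryanodine receptor, fell by 1.47 (adjusted p = 0.00453). Slc8a1, a sodium-calcium exchanger, fell by 0.50, a call lost without stg-/- array 2 or stg+/+ array 3 (adjusted p of 0.0646 to 0.0718). The other Slc8a1 probe set was at 0.01 and did not pass.

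Nos1, the neuronal nitric oxide synthase, which calmodulin activates, rose, while Pde1c, a phosphodiesterase of cyclic nucleotides that calmodulin also activates, fell. Nos1 had 447, 473 and 459 on the stg+/+ arrays and 1475, 1291 and 1425 on the stg-/- arrays, 3.04 times as high in the means. That is a rise of 1.595 (log2, SE 0.12) with an adjusted p of 5.86e-07; further Nos1 probe sets rose by 1.96 and 1.76. Pde1c had 203, 155 and 170.5 against 52.5, 29.8 and 60.3, a change of -1.87 (SE 0.23, adjusted p = 0.000117), and 5 of its 6 probe sets fell. The 19 genes of this list of nitric oxide, cyclic GMP and phosphodiesterases had a median of 0.13, with 17 not passing. Of 33 MAP kinases and phosphatases Mapk13 rose, and Mapk12, another p38 kinase, fell from 512, 525 and 503 to 283, 321 and 245 (-0.86, adjusted p = 0.000963). The other Mapk12 probe set was at 0.50 and did not pass (adjusted p = 0.649). Both encode p38 kinases, and they moved in opposite directions. Dusp5 fell as well. Adcy1, the calmodulin-stimulated adenylyl cyclase, fell by 0.73, a call that ended without stg-/- array 1 or 3 or stg+/+ array 1 or 2 (adjusted p of 0.0561 to 0.108). It was 1 of 32 genes of cyclic AMP and G protein signalling, 2 of which rose.

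Of 49 genes of the synaptic vesicle and its release, 3 rose, 3 fell and 16 lay above 0, with a median of -0.10. Doc2b, a calcium sensor of spontaneous release, rose from 417, 505 and 442 to 736, 687 and 731, a change of 0.66 (SE 0.10, adjusted p = 0.00119). Slc17a6, the vesicular glutamate transporter VGLUT2, which mossy and climbing fibres and neurons of the cerebellar nuclei use, rose from 173, 128 and 142 to 251, 247 and 329 (0.88, adjusted p = 0.00376). Neither pair of groups overlapped, as for nearly all called probe sets. Slc17a6 is 1 of 8 measured markers of the brainstem and cerebellar nuclei. Their signals, that of Slc17a6 included, summed to 1144 to 1340 on the stg+/+ arrays and 1379 to 1606 on the stg-/- arrays. The mean log2 level of the 8 overlapped, at 6.49 to 6.92 on the stg+/+ arrays and 6.72 to 6.80 on the stg-/- arrays. Of the 8, 4 lay above 0, with a median change of 0.11. Slc17a6 was the only one of the 8 to pass, 21 further listed genes, Hoxb5 among them, were below the filter, and the part of this tissue in the result was not tested. Synpr, a vesicle membrane protein, rose by 0.84, a call lost without stg-/- array 1 (adjusted p = 0.0508). Cadps2, which primes dense-core vesicles and serves the release of BDNF from granule cells, fell by 0.57 (adjusted p = 0.00191). Rab3c fell by 0.52 and the active zone protein Rims1 by 0.60. The call of Rims1 was lost without stg-/- array 2 or 3 or stg+/+ array 2 (adjusted p of 0.108 to 0.139).

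Of 21 neuropeptide and dense-core vesicle genes 3 fell and none rose, while the list's median was 0.08. Bdnf, the neurotrophin that granule cells store in such vesicles, had 78.1, 84.3 and 152 on the stg+/+ arrays and 19.5, 31.8 and 5.74 on the stg-/- arrays. The groups were well apart, with a change of -2.44 (SE 0.35) at an adjusted p of 0.000713; on its other probe set Bdnf fell by 1.48. Chgb, chromogranin B, a core protein of the vesicles, had 4669, 5043 and 4280.2 against 2716, 2606 and 2570.1, a change of -0.82 (SE 0.11, adjusted p = 0.000566). Scg2, secretogranin II, had 979.7, 847 and 1043 against 655, 552 and 691, a change of -0.60 (adjusted p = 0.0101), also without overlap. Its call was lost without stg-/- array 2 or stg+/+ array 1 or 3 (adjusted p of 0.054 to 0.0672).

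The upstream sequences of these granin genes are shown because both fell and both hold the palindrome TGACGTCA, the cyclic AMP response element bound by CREB, a transcription factor that Camk4 can phosphorylate. Each is the 250 bases before the annotated start in GRCm38.p6, credited to RefSeq, written 5′ to 3′ along the gene with the element in capitals. For Scg2 it is chr1:79440027-79440276 on the minus strand, with the element starting 68 bases before the start (position -68), and for Chgb chr2:132781392-132781641 on the plus strand (position -72).
Scg2: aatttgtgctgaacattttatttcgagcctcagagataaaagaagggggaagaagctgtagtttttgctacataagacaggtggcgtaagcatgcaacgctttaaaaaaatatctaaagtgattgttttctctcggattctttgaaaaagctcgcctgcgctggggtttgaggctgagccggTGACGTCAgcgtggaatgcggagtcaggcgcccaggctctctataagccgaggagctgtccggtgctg
Chgb: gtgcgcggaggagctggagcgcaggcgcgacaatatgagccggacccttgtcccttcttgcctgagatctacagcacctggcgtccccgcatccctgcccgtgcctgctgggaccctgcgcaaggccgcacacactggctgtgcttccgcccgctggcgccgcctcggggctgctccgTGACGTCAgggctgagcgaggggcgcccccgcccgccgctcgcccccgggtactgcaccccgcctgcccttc

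The element was 1 of 12 motifs searched on both strands in windows from 250 bases before to 50 bases after the start, and it is singled out after the values were seen. It is in 1.79% of all 32851 windows and in the windows of 3.59% of 9868 measured genes. Among genes with a window it was in 7 of the 101 that fell (6.93%) and 0 of the 85 that rose. The 7 were Bend6, Chgb, Clstn2, Scg2, Tmem120b, Topors and Zfp367, named after their values were seen. The shorter TGACG, which the palindrome holds, was in the windows of 35.5% of measured genes, of 31.7% of those that fell and of 22.4% of those that rose. A match describes the letters of a window and is not evidence of binding there.

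Of 29 neurotrophin and growth factor genes 6 fell and none rose, while the median was 0.01. Besides Bdnf and Ltbp2 these were Igfbp5, which binds insulin-like growth factors, Pappa, a protease that cleaves such binding proteins, the receptor Fgfr1 and the ligand Fgf1. Igfbp5 fell from 597 ± 66.7 (SD, n = 3) to 272 ± 63.0, a change of -1.15 (SE 0.17, adjusted p = 0.000872). Fgfr1 fell from 403 ± 45.4 to 231 ± 21.3 (-0.79, adjusted p = 0.00261). Pappa was near the floor on all stg-/- arrays, with 4.10, 3.26 and 1.78, and at 34.8, 6.77 and 24.9 on the stg+/+ arrays, and its call was lost without stg+/+ array 1 or 3 or stg-/- array 3 (adjusted p of 0.0791 to 0.116). Without both stg+/+ arrays 1 and 2 the number of members that fell was 2, and on the 6 arrays alone 3.

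Of 34 activity-regulated genes, transcripts that neurons induce on firing, 4 fell, 1 rose and 10 lay above 0, with a median of -0.25. Bdnf and Scg2, described above, fell, as did the transcription factor Jun (-0.65, adjusted p = 0.0244) and Dusp5, a phosphatase of ERK kinases (-0.78, adjusted p = 0.0248). Gadd45g, a stress-inducible gene, rose by 0.67 (adjusted p = 0.00889). The calls of Jun were lost without stg-/- array 2 or 3 or any 1 of the stg+/+ arrays (adjusted p of 0.0544 to 0.136), those of Dusp5 without stg-/- array 2 or stg+/+ array 2 or 3 (0.0553 to 0.135) and those of Gadd45g without array 3 of either group (0.0626 to 0.0657). The count of falls was 1 without stg-/- array 2, without stg+/+ array 3 or without stg+/+ arrays 1 and 2 together, 2 without stg+/+ array 1 or 2 alone, 1 on the 6 arrays alone, and 0 with only the female arrays.

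Adhesion molecules were the longest list described here. Of 64 measured, 5 rose, 1 fell and 39 lay above 0, with a median of 0.08. Of all genes measured 54.5% lay above 0. Igsf3, a cell surface protein of the immunoglobulin superfamily, had 77.8, 68.0 and 61.1 on the stg+/+ arrays and 172, 199.6 and 249 on the stg-/- arrays, a rise of 1.53 (SE 0.18, adjusted p = 8.04e-05) found on 3 of 3 probe sets. Nectin3, a calcium-independent adhesion protein, had 99.7, 111 and 156 against 305, 319 and 330.0, a rise of 1.38 (SE 0.18, adjusted p = 0.000268), called on 2 of 6 probe sets. Cdh7, a cadherin, had 124, 114 and 108 against 316, 269.9 and 322, a rise of 1.37 (SE 0.14, adjusted p = 2.57e-05), called on 1 of 3. The 3 probe sets of Cdh7 ranged from -0.27 to 1.37. Groups did not overlap for any of these 3 genes, as the rule for the largest rises required. Tenm2, a teneurin that binds latrophilins across the synapse, rose by 0.81 (adjusted p = 0.00557), and Astn1, the astrotactin by which granule cells migrate along glia, rose by 0.63 (adjusted p = 0.00483). Ntng1, netrin-G1, an axonal ligand, fell by 1.15 (adjusted p = 0.000373). It was called on 1 of 4 probe sets, which ranged from -1.17 to -0.04. Without both stg+/+ arrays 1 and 2 the counts were 3 rises and 0 falls, and with only the female arrays 3 rises and 1 fall.

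Basp1 and Marcks, membrane proteins that gather phosphoinositides and actin at the growth cone, rose by 1.19 (adjusted p = 0.00116) and, on 3 probe sets, by 0.53 to 0.77. Marcks is named after its values were seen. Of 42 matrix and proteolysis genes Timp2, an inhibitor of metalloproteases, rose on 3 of 5 probe sets, from 509.8 ± 50.5 to 848 ± 76.2 (SD, n = 3) on the main one (0.73, adjusted p = 0.013). That probe set no longer passed without array 2 or 3 of either group (0.0524 to 0.0687), and the other called ones rose by 0.92 and 1.06. Of 41 axon guidance genes Sema3a, a repellent semaphorin, rose by 0.55, a call lost without any 1 of the stg-/- arrays or stg+/+ array 1 or 3 (0.0972 to 0.182).

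Markers of mature granule cells were the cell type list with the most called members. Of 28 measured, 8 fell, none rose and 6 lay above 0, with a median of -0.19, beside 118 of 12201 genes (0.967%) that fell. They were Vsnl1, Camk4, Grm4, Kcnd2, Cadps2 and Gabra6, given above, Tiam1, a Rac activator (-0.42, adjusted p = 0.00586), and Car4, a carbonic anhydrase. Car4 had 1178, 1021 and 1177 on the stg+/+ arrays and 481, 551 and 611 on the stg-/- arrays, a change of -1.04 (SE 0.13, adjusted p = 0.00012), and did not overlap. Neurod1, a transcription factor of the granule cell lineage, fell by 0.45 on a probe set that is not its main one. The summed signal of the 28 was 86993, 88596 and 78672 on the stg+/+ arrays and 71740, 72988 and 69943 on the stg-/- arrays, and the medians of the 3 pairs were -0.23, -0.30 and -0.11. In bulk tissue fewer cells of a type and less RNA per cell cannot be told apart. Without both stg+/+ arrays 1 and 2 the number that fell was 4, with only the female arrays 5, and between 6 and 10 under the other settings except the replicate block in every line, which gave 12.

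For some further granule cell genes the groups overlapped. Fat2, a protocadherin of granule cells named here after its values were seen, had 1082, 1105 and 859 on the stg+/+ arrays and 1177, 992 and 1036 on the stg-/- arrays, which overlap. For Cbln3, a secreted cerebellin of granule cells also named after the fact, the values were 6195, 6512 and 4654 against 5453, 5298 and 4446, again overlapping, although each stg-/- array was below the stg+/+ array of the same number. Of 24 markers of granule cell precursors and immature granule cells 2 rose, none fell and the median was 0.12. Sox4, a transcription factor of neurons that are still differentiating, had 230.0, 239.9 and 219 on the stg+/+ arrays and 584, 505 and 700.4 on the stg-/- arrays. The groups were far apart, with a rise of 1.35 (SE 0.12, adjusted p = 2.66e-06), and all 5 Sox4 probe sets rose, by 1.35 to 2.37. Mycn, which drives division of precursors, rose by 0.99 (adjusted p = 0.0281), a call lost without any 1 of the stg-/- arrays or stg+/+ array 3 (0.0572 to 0.131).

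Purkinje cell markers had no member that passed on its main probe set. Yet 21 of 27 lay above 0, beside 54.5% of all genes, and the median was 0.22. Slc1a6, the glutamate transporter EAAT4 of Purkinje cells, was at 0.47 with an adjusted p of 0.0515, and 0.0162 with the replicate numbers as a block. Rora, a nuclear receptor that Purkinje cells need, rose by 0.36 (SE 0.09, adjusted p = 0.0415) on a probe set that is not its main one, a call lost without any 1 of the 6 arrays (0.0740 to 0.168). The summed signal of the list was 58334, 61217 and 49509 on the stg+/+ arrays and 65896, 67693 and 61398 on the stg-/- arrays. Only stg+/+ array 3 was clearly low, and the lowest stg-/- array was just above the highest stg+/+ array. Of 24 markers of interneurons, Golgi cells and unipolar brush cells none passed, with a median of 0.07.

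Among glia, 28 of 33 astrocyte and Bergmann glia markers lay above 0, beside 54.5% of all genes, with a median of 0.17, and 2 rose. Gfap, the astrocyte filament, had 319, 399 and 239 on the stg+/+ arrays and 481, 895 and 491 on the stg-/- arrays, a rise of 0.93 (adjusted p = 0.0283). Array 2 of stg-/- was the highest, and the call was lost without it or without stg+/+ array 1 or 3 (0.0844 to 0.162). Htra1, a secreted serine protease of astrocytes, rose by 0.35, a call lost without any 1 of 5 arrays, all but stg-/- array 2 (0.0691 to 0.195). Of 22 microglia and complement genes 19 lay above 0, with a median of 0.24, and none passed; the nearest was C1qc, a chain of complement C1q, at 0.71 (adjusted p = 0.0709, or 0.043 with the replicate block). The medians of that list were 0.29 in tg and 0.39 in lh. No member passed among 25 oligodendrocyte genes (median 0.10) or 25 endothelial, pericyte and meningeal markers (median 0.03). The 17 choroid plexus and ependyma markers had a median of 0.43, but the medians of the 3 pairs were -0.91, 2.77 and -0.09, and the pair with 2.77 holds stg+/+ array 2, on which Ttr was low.

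**Figure D3:**
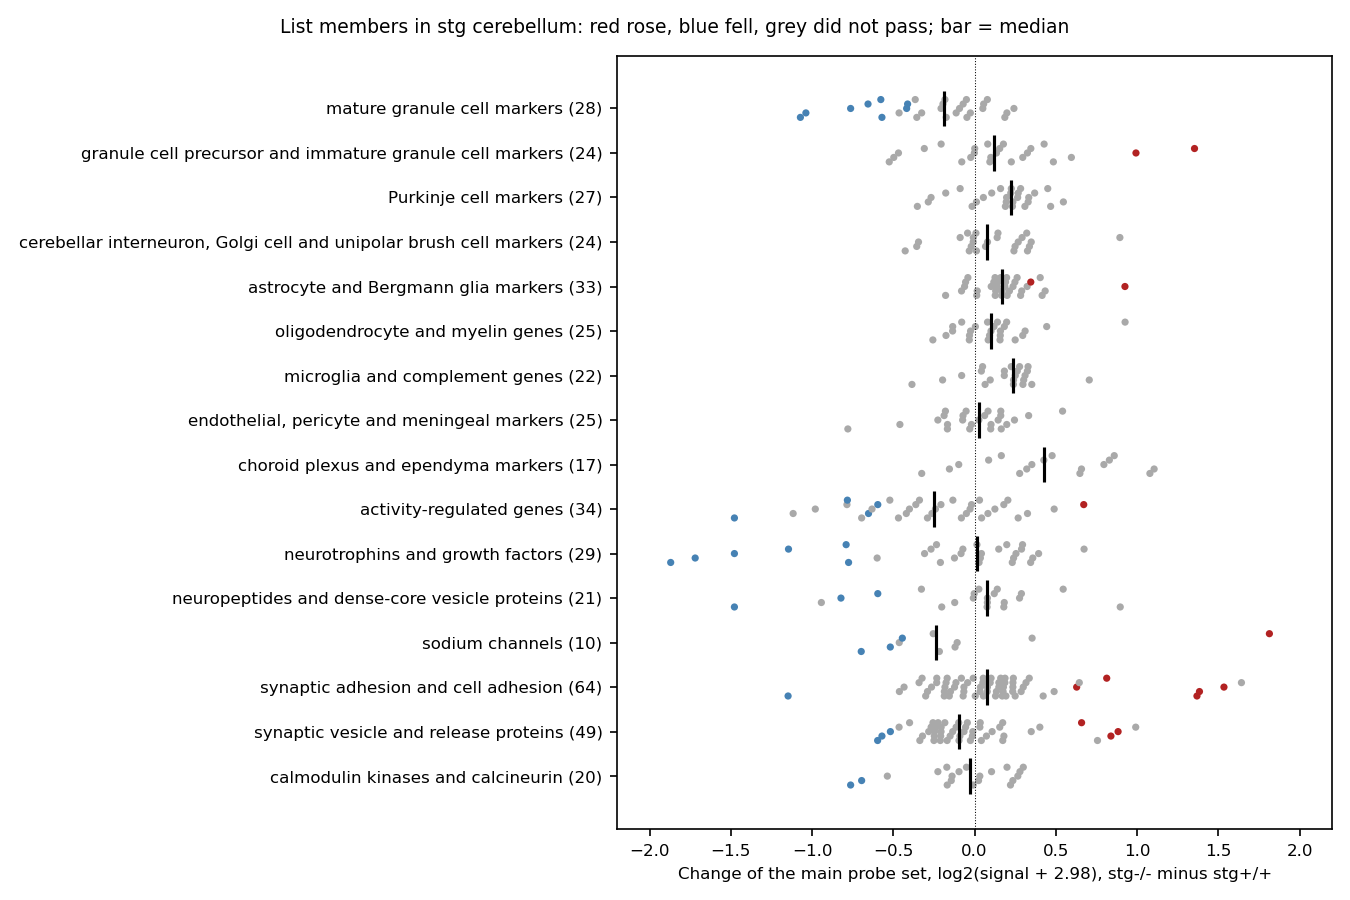
Change of the main probe set of each member of 16 gene lists (log2, stg-/- minus stg+/+ cerebellum), 1 point per gene. Members that rose are red, those that fell blue, those that did not pass grey, and the bar is the list's median; mature granule cell markers have 8 blue points and a median of -0.19, and Purkinje cell markers a median of 0.22 with grey points only.

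The remaining lists held few changes. Of 31 clock and glucocorticoid response genes Per3 and Tef, which take part in the circadian rhythm, rose by 0.76 and 0.61, 24 lay above 0 and the median was 0.20. The call of Per3 was lost without stg-/- array 1 or 2 or any 1 of the stg+/+ arrays (0.0506 to 0.0911), and the time of day of sampling is unstated in the labels. The glucocorticoid receptor Nr3c1 fell by 0.86 on a probe set that is not its main one. Of 32 stress genes Gclm, a subunit of the enzyme that limits glutathione synthesis, rose by 0.67 (adjusted p = 0.00208). Of 23 cell death genes Bcl2l11, the pro-apoptotic protein Bim, rose by 0.86 (adjusted p = 0.00557) and again, by 0.94, on a second probe set. Fdps, of the cholesterol pathway, rose by 0.53 (1 of 29). None of 33 genes of glycolysis and respiration passed, with a median of -0.02. Of 32 RNA-binding proteins Rbfox2 rose by 0.86 and Rbfox1, a related splicing factor, fell by 0.46, the latter lost without stg+/+ array 2 (0.0501). Among 42 transcription factors and chromatin proteins only Klf7 fell, by 0.44, a call lost without any 1 of the stg-/- arrays or stg+/+ array 2 or 3 (0.0631 to 0.202). Klf7 was called on 1 of 4 probe sets, which ranged from -0.44 to 0.02. Of 23 interferon and antigen presentation genes Mndal rose, from 131 ± 32.1 to 422 ± 184 (SD, n = 3), a call lost without any 1 of 5 arrays, all but stg-/- array 1 (0.0508 to 0.159).

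Some changes lay near the mutated gene. Of 294 probe sets tested within 10 Mb of Cacng2 on chromosome 15, 9 (3.06%) were called, in 8 genes, beside 1.3% of all. Without the 3 probe sets of Cacng2 itself these were 7 of 291 (2.41%). Besides Cacng2 these were Rbfox2, Ly6h, Tef, Foxred2 and 5031439G07Rik, which rose by 0.86, 1.19, 0.61, 0.69 and 0.46, and Cbx7 and Arhgap39, which fell by 1.73 and 1.25. Rbfox2, Cbx7 and Arhgap39 were at 0.75, -1.51 and -1.28 in stg forebrain, where none of the 3 passed (adjusted p = 0.358, 0.999969 and 0.176). In lh cerebellum Cbx7 was at -0.998 and Arhgap39 at -0.80, neither passing (adjusted p = 0.352 and 0.444). Each of these 3 was called in cerebellum on 1 of its probe sets only, and the others of Rbfox2 reached -0.33. Whether sequence differences carried along with the mutation take part in these signals was not tested. Calls were lost for Cbx7 without stg+/+ array 3 (adjusted p = 0.0502), and for Arhgap39 without any 1 of 5 arrays, all but stg+/+ array 2 (0.0886 to 0.175). For Foxred2 they were lost without any 1 of 5 arrays, all but stg-/- array 2 (0.0725 to 0.235), and for 5031439G07Rik without array 1 or 3 of either group (0.0565 to 0.0948).

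In the cerebellum of the lines tg and lh, whose +/+ arrays are separate from those of stg, these probe sets mostly had the same sign, with smaller values. They were chosen for their change in stg, which by itself favours smaller values elsewhere. The lines also differed in the sex of their arrays. Mean Xist was 2618 and 2479 in stg-/- and stg+/+ cerebellum, 18.9 and 21.4 in tg, and 1149 and 959 in lh. The part of sex in differences between lines was not tested. Of the 352, 260 (73.9%) had the same sign in tg, beside 53.6% of all probe sets, and 268 (76.1%) in lh, beside 50.6%. The median change along the stg direction was 0.13 in tg and 0.17 in lh. Also called were 11 of them in tg, where 155 (0.574%) were called in all, and 15 in lh, where 42 (0.155%) were; 14 of the 15 ran in the stg direction. Camk4, for example, was at -0.14 in tg and fell by 0.62 in lh (adjusted p = 0.000459). Nos1 rose by 0.65 in tg (adjusted p = 0.0125) and was at 0.37 in lh. Mapk13 rose by 2.04 in tg (adjusted p = 0.0259), and Ncald fell by 0.69 in lh (adjusted p = 0.014).

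The test of the difference itself, the stg change minus the mean of the tg and lh changes, was passed by 75 probe sets (0.278%), 59 of them among the 352. It uses the stg arrays that gave the 352, so overlap is partly built in. By this test Adamts10 (-1.30, SE 0.13, adjusted p = 3.9e-05), Aqp6 (-1.97), Pde1c (-2.06), Cdh7 (1.43) and Doc2b (0.98) differed in stg. The signal of the called Cdh7 probe set also differed between control lines, with means of 115 in stg+/+, 122 in lh+/+ and 468 in tg+/+ cerebellum. Its mean of 303 in stg-/- lay below that of tg+/+. Scg2 fell in stg and was at 0.31 in tg and 0.46 in lh, neither passing, and the difference was -0.98 (SE 0.14, adjusted p = 0.00265). For Gabra6, in contrast, the changes were -0.41, -0.34 and -0.36 in stg, tg and lh, and the difference of -0.06 (SE 0.10) did not pass (adjusted p = 0.92). Th, tyrosine hydroxylase, showed the reverse case. It rose in tg by 4.15 and in lh by 3.42, but had 39.6, 58.9 and 29.0 on the stg+/+ arrays and 44.9, 46.4 and 54.2 on the stg-/- arrays, which overlap, and the difference was -3.55 (SE 0.24, adjusted p = 1.8e-07). The number of differences was 42 without stg+/+ array 1.

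In stg forebrain, where Cacng2 was lower as well, 4 of the 352 probe sets passed the test in the fit over all 36 arrays, which called 4 of 27022 (0.0148%). These were a pair of Cacng2 probe sets, 1 of Mtm1 (1.80, adjusted p = 0.0248) and 1 without a gene name (1.27, adjusted p = 0.0248). Of 344 of the 352 that were measured there, 192 (55.8%) had the same sign, beside 51.5% of all, and the median change along the cerebellum direction was 0.02. The difference of the stg change between cerebellum and forebrain passed for 67 probe sets (0.248%), 63 of them among the 352. This test, too, uses the stg cerebellum arrays that gave the 352, so overlap is partly built in. The 8 with the smallest p were Ncald (-1.57, SE 0.16, adjusted p = 1.02e-06), Kcnk2 (1.54, SE 0.16, adjusted p = 1.58e-06), Nos1 (1.44), Homer2 (2.22), Sox4 (1.29), Scn3b (1.79), Inf2 (1.80) and Igsf3 (1.62), each at or near 0 in forebrain, from -0.20 for Kcnk2 to 0.15 for Nos1. Another Nos1 probe set was at 0.90 in forebrain, with a difference of 1.06 (SE 0.58, adjusted p = 0.868). Bdnf, which fell in cerebellum, was at 0.52 in forebrain, with a difference of -2.96 (SE 0.42, adjusted p = 0.000141). Mtm1 did not follow this pattern, with 2.41 in cerebellum and 1.80 in forebrain and a difference of 0.61 (SE 0.45, adjusted p = 0.952), nor did Cdh7, with 1.37 and 0.97 and a difference of 0.40 (SE 0.27). Gfap was at 0.93 in cerebellum and 0.85 in forebrain, where it did not pass. Both differences, from the other lines and from forebrain, passed for 29 of the 352 probe sets. Among them were probe sets of Ncald, Kcnk2, Nos1, Homer2, Sox4, Scn3b, Igsf3, Adamts10 and Doc2b. The tests share the stg cerebellum arrays and are not independent of each other.

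**Figure D4:**
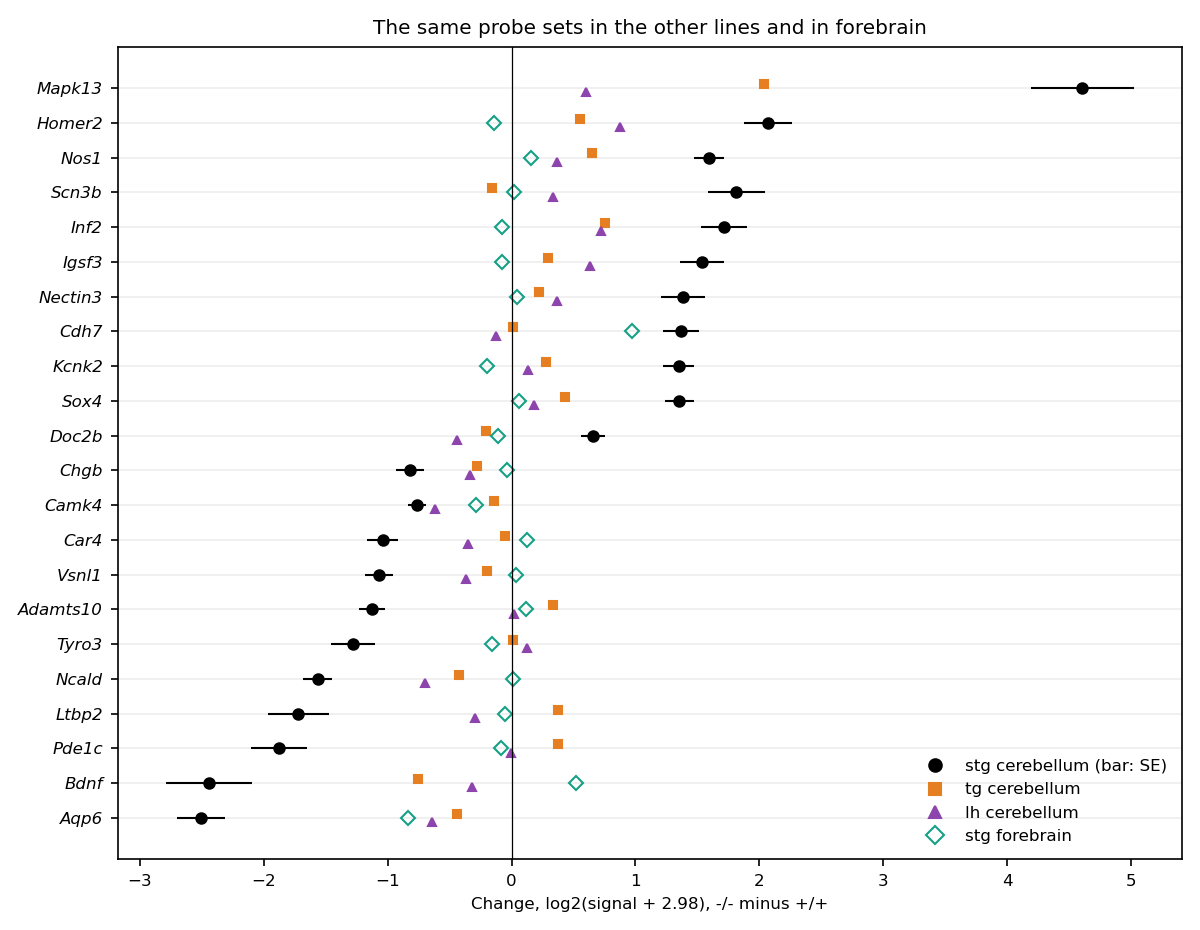
Log2 change, -/- minus +/+, of 22 genes in stg cerebellum (with its SE), tg cerebellum, lh cerebellum and stg forebrain. For Ncald the values are -1.57, -0.43, -0.69 and 0.01.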

How the data were processed

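Total RNA of mouse forebrain and cerebellum was measured on 36 Affymetrix arrays of 1 colour and 45101 probe sets, in 12 groups of 3, per the labels. The deposited values were linear signal intensities that the authors had scaled, the mean after trimming 2% at each end being 150 on every array. How the scans were processed is not stated in these sources, and the limit of detection is unknown. The number of arrays per group limits the precision.

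From these, log2 of the signal plus 2.98, the 10th percentile of all values, was taken, which understates changes near the floor. The 64 control probe sets and those below the 40th percentile of mean level were left out, which kept 27022. Array medians spanned 0.326 (log2), below the limit of 0.5, so no quantile normalization was applied. Names came from the probe table: 34958 probe sets had 1 symbol, 932 several and 9211 none, and 34754 of the named ones matched the annotation of GRCm38.p6 by Entrez ID. In lists a gene stands for its probe set with the highest mean; a gene named for a large rise or fall is given first by the probe set that named it.

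The fit was made with limma 3.58.1 in R 4.3.3, with 1 mean per group over the 18 cerebellum arrays, an intensity trend and two-sided moderated tests adjusted by the Benjamini-Hochberg method at 0.05. The other lines share the estimate of the spread (12 residual degrees of freedom). A fit over 36 arrays gave the difference between tissues. The script was tested on simulated data. Same-numbered stg arrays deviated together (correlations of 0.156, 0.188 and 0.380, each above the limit of 0.1). Arrays of different numbers had correlations of -0.243 to 0.092. Same-numbered arrays were therefore taken as pairs, a reading that rests on these data and not on the labels. Array 3 was the male array of both groups, so for the 0.380 shared sex and pairing cannot be told apart. The fit without the block was kept.

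The rule for named genes took Cacng2, the 20 largest rises and 20 largest falls without overlap, up to 5 called members of each of 43 lists, the gene with the smallest p where none passed, 8 genes for each test of a difference, a list of genes described in calcium channel mutants, and called genes within 10 Mb of Cacng2. The comparison, the lists and the genes were chosen with earlier results of these data known. Further probe sets of these genes were added after their values were seen. Alternatives were other filters, quantile normalization, a constant of 1, no trend, array weights, the 6 arrays alone, blocks, and arrays left out. The result of 1 list is not reported here.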

Additional observations from a re-analysis of the deposited data

Results flagged for a closer look

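The change in stg cerebellum differed from the mean change in tg and lh cerebellum for 75 probe sets, by a test of the difference itself in limma. The 8 with the smallest p were those of Cacng2 (-6.49), Th (-3.55), Adamts10 (-1.30), Cemip (-1.37), Aqp6 (-1.97), Cdh7 (1.43), Doc2b (0.98) and Pde1c (-2.06), as differences of log2 changes. Cemip, a hyaluronan-binding protein, fell by 0.71 in stg and rose by 1.06 in lh.

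The change in stg differed between cerebellum and forebrain for 67 probe sets by the same kind of test. The 8 with the smallest p were those of Ncald (-1.57), Kcnk2 (1.54), Nos1 (1.44), Homer2 (2.22), Sox4 (1.29), Scn3b (1.79), Inf2 (1.80) and Igsf3 (1.62). With 3 arrays in each group, single arrays were not tested for lying apart.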

How the results depend on the processing

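The count of 352 changed probe sets was 194 on the 6 arrays alone, 225 to 291 with 1 stg array left out and 155 without stg+/+ arrays 1 and 2, where 54.8% were higher against 40.3%. It was 289 with no filter, 371 when the filter was raised to the 60th percentile, 397 after quantile normalization, 351 for a constant of 1, 253 with no trend and 509 under array weights. The 75 differences from tg and lh were 45 without the trend, 171 with array weights, 43 without stg+/+ arrays 1 and 2, and 42 to 74 with 1 array left out. The 67 differences from forebrain were 133 with array weights, 45 to 68 with 1 array left out, and 65 without stg+/+ arrays 1 and 2, where 75.4% were higher against 50.7%. The cause was not tested; fewer arrays leave less power by construction.

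With the replicate block, the stg replicate number as pairing, 423 probe sets passed, 345 of them among the 352, and 92 differed from tg and lh. Of the named calls the block ended those of Grik3 and Foxred2, added those of Slc1a6 and C1qc, and changed no other. These alternatives were chosen after seeing the data: a replicate block in every line gave 1018 calls, all 352 among them, and 567 differences, although no label gives a pairing; a block for sex gave 413; and the female arrays alone gave 148.

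Of 104 named called probe sets 35 passed under all of up to 18 settings, 41 were lost with at least 1 array left out, and none changed sign. Uncalled values that changed sign with 1 array left out ranged from -1.33 to 0.10 (Alas2), -0.0303 to 0.14 (Ntrk2), -0.0373 to 0.73 (Npy) and -0.0102 to 0.16 (Gria4). Ntrk2 was at -0.18 without stg+/+ arrays 1 and 2, and with the female arrays alone Th was at -0.0770, Npy at -0.0370 and Gria4 at -0.0304.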

Other observations

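Further genes outside the lists and the rule changed on a probe set whose call held with any 1 of the 6 arrays left out, and are named here after their values were seen. Sphkap, an anchoring protein of protein kinase A, fell from 2811 ± 45.1 (SD, n = 3) in stg+/+ to 1610.0 ± 81.1 in stg-/- cerebellum (-0.80, SE 0.08, adjusted p = 2.18e-05, range with 1 array left out 9.53e-05 to 0.000361). Dclk1, a doublecortin-like kinase that binds microtubules, fell from 1070.3 ± 58.9 to 623 ± 55.7 (-0.78, SE 0.09, adjusted p = 6.31e-05, range 0.000136 to 0.000783). A second Dclk1 probe set fell by 0.50 (adjusted p = 0.0468). That call was lost without any 1 of 5 arrays, all but stg-/- array 3 (adjusted p up to 0.207). Dab1, the adaptor of the reelin receptors, fell from 376 ± 9.63 to 241 ± 3.32 (-0.64, adjusted p = 0.00185). Usp3, a deubiquitinase of histones, fell on 4 probe sets, from 432 ± 18.3 to 223 ± 23.01 on that with the smallest p (-0.95, adjusted p = 0.00172). The call of 1 of the 4 was lost without stg-/- array 1 or stg+/+ array 1 or 3 (adjusted p up to 0.0588). Rem2, a small GTPase that inhibits calcium channels and is induced by activity, fell by 1.19 (adjusted p = 0.00205).

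Among rises of the same kind were Cd47, a surface protein that restrains phagocytosis, Mtss1, a membrane-bending protein of Purkinje cells, and Id2, an inhibitor of basic helix-loop-helix factors. Cd47 rose from 1348 ± 34.4 to 2013 ± 41.2 (0.58, adjusted p = 0.00185) and also on a second probe set, by 0.53. Mtss1 rose from 784 ± 75.5 to 1173 ± 39.7 (0.58, adjusted p = 0.00191), and Id2 from 1075 ± 80.1 to 1709 ± 33.5 (0.67, adjusted p = 0.00534). A second Mtss1 probe set rose by 0.34 (adjusted p = 0.0436). That call was lost without stg-/- array 1 or 3 or stg+/+ array 1 or 2 (adjusted p up to 0.232).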
